A study of Mus musculus with 12 samples.

Results

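Immediate-early and dissociation stress genes were described in the resident macrophages (RM) of the colon and in its dendritic cells that carry CD11b (CD11b+ DC), sorted from mice with and without Runx3 in these cells. The list held 41 genes chosen by name, and a gene was measured where a row of the value table carried its symbol alone, with the row of the highest mean used where a gene had several. Of these, 40 had a row of their own, out of 19938 genes with such a row. Hspa1b shared its only row with Hspa1a and was not counted.

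The study asked how loss of the transcription factor Runx3 alters the transcriptome of colonic mononuclear phagocytes, and sorted both cell types from the cecum of mice aged 6 to 8 weeks for hybridization to Affymetrix arrays. The 12 samples were 4 of Runx3Δ RM, 3 of WT RM, 3 of Runx3Δ CD11b+ DC and 2 of WT CD11b+ DC. Runx3Δ mice were Runx3 fl/fl animals carrying CD11c-Cre, and WT mice were littermates labelled Runx3 +/+. CD11c is active in DC and in macrophages, so Cre can delete the gene in both. Among CD45+ Ly6c- cells positive for MHCII, CD11b and CD11c, the sort took F4/80+ cells as RM and F4/80- cells as CD11b+ DC. Each sample pooled cells of 3 to 4 mice, males and females together. Every group shared the isolation, in which cecum pieces were shaken at body temperature first with EDTA and then with collagenase before sorting. No sample prepared without that step was analysed here, so the levels below cannot be divided into a part present in the tissue and a part gained during isolation.

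Immediate-early genes are transcribed within minutes of a stimulus without new protein synthesis, because kinases switch on transcription factors already bound at their promoters. Their products include transcription factors such as Fos, Jun and Egr1, and inhibitors such as Dusp1, Zfp36 and Nfkbia that end the same signal. Heat shock genes are driven by a different factor, HSF1, when proteins unfold. Both classes are known to be induced while tissue is digested with warm enzymes, and in macrophages many of the same genes also respond to microbial products.

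The values are log2 intensities. Array medians over all rows lay between 5.33 and 5.52. RM carried their markers and CD11b+ DC theirs: the mean log2 level of 12 macrophage markers was 11.25 in Runx3Δ RM and 11.39 in WT RM, against 9.51 in Runx3Δ and 9.69 in WT CD11b+ DC, while that of 10 DC markers was 8.90 in Runx3Δ RM and 8.85 in WT RM, against 10.33 and 10.44 in the same DC groups. Runx3 itself had a log2 level of 9.94 ± 0.16 in Runx3Δ RM (SD, n = 4) and 9.69 ± 0.19 in WT RM (SD, n = 3). In CD11b+ DC it was 10.04 ± 0.09 in Runx3Δ (SD, n = 3) and 10.05 ± 0.09 in WT samples (SD, n = 2). The deletion removes 1 exon while this row reads the whole gene, so its level is no measure of the deletion.

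Every one of the 40 genes had a mean level above the median of all genes. Their mean log2 levels over the 12 samples ran from 7.34 for Egr3 to 12.93 for Dusp1, with a median of 10.51, against a median of 5.68 over all genes. They also varied more, although all genes include many dim ones and genes of a similar level were not compared. The difference between the highest and the lowest sample had a median of 1.07 over the 40 genes, from 0.29 for Btg1 to 2.23 for Egr1, against 0.59 over all genes. The map of deviations by sample shows that much of this variation ran through whole samples.

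**Figure D1:**
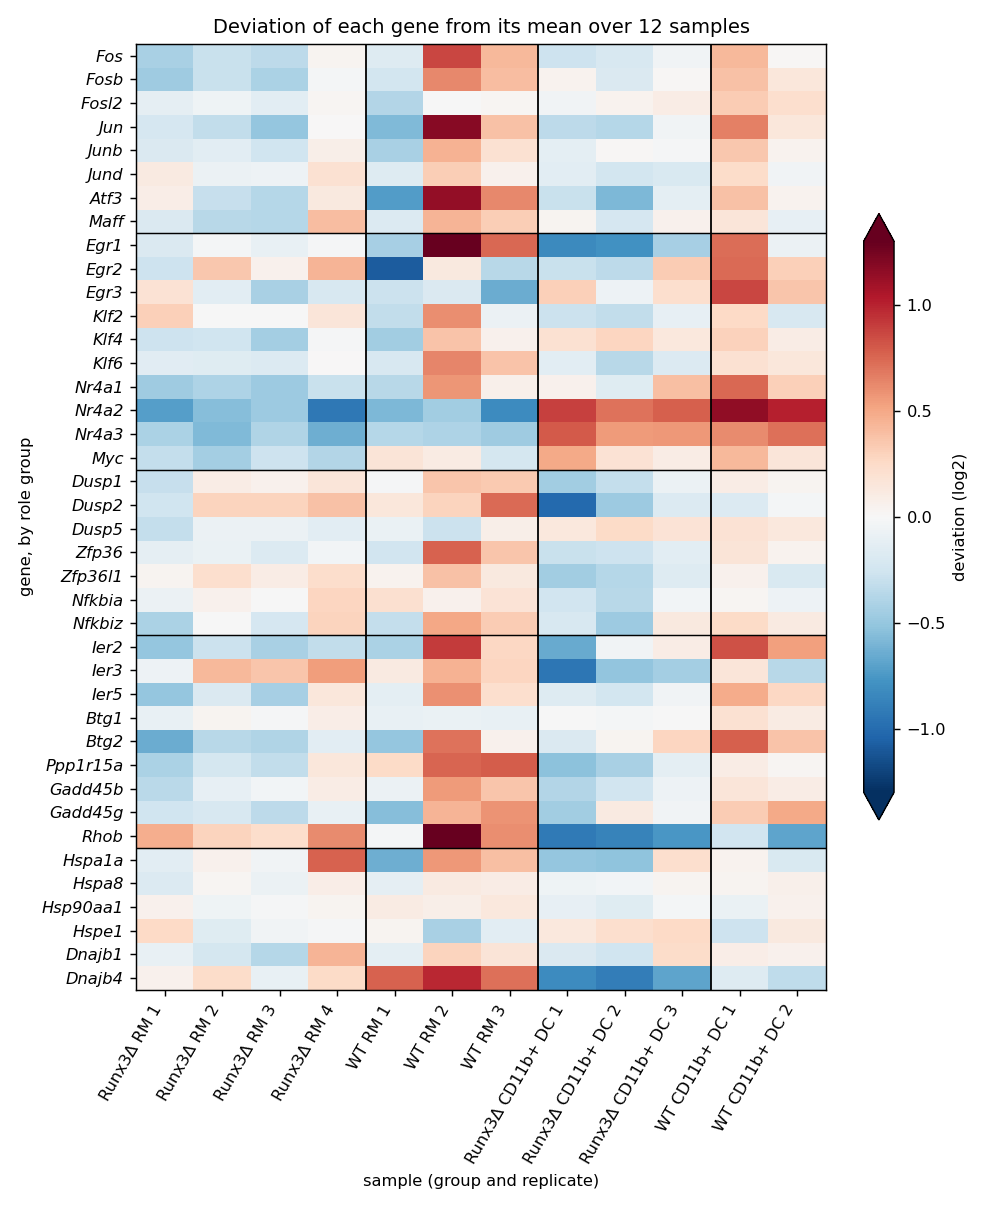
Deviation of each of 40 genes (rows, by role group) from its own mean over the 12 samples (columns, by group and replicate), on the log2 scale, red above and blue below. Most rows of WT RM replicate 2 and WT CD11b+ DC replicate 1 are red, and 31 of 40 genes were lowest among WT RM in replicate 1.

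In Runx3Δ RM, most of these genes had lower mean levels than in WT RM, but none passed the test across all rows. The difference was below 0 for 32 of 40 genes, with a median of -0.22 on the log2 scale, whereas 47.4% of all genes lay below 0 with a median of 0.01. In limma, 0 of 40 genes had an adjusted p under 0.05, against 0.0201% of all genes, and the lowest was 0.0971. Before adjustment 10 of 40 had a p under 0.05, all of them lower in Runx3Δ RM, against 9.03% of all genes in either direction. The study counted a gene as different when it moved by 1.5-fold or more with an unadjusted p no higher than 0.05. By these thresholds 4 genes were lower and 0 higher, against 0.858% and 0.487% of all genes. All genes include many dim ones. In the fit to rows at a log2 level of 5 or more in a sample, the shares were 1.27% and 0.724% of 13405 genes. The median difference of those genes was -0.03. Groups did not overlap for 4 genes that were lower and for 0 that were higher, against 4.51% and 4.04% of all genes. In such bulk samples, fewer cells with a transcript and less transcript per cell cannot be told apart.

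The AP-1 subunits showed the pattern of the list. Fos, which pairs with Jun proteins to bind DNA, had log2 levels of 10.84, 10.98, 10.93 and 11.31 in Runx3Δ RM, and of 11.10, 12.14 and 11.69 in WT RM. WT replicates 2 and 3 were above every Runx3Δ sample, and WT replicate 1 lay among them. The difference was -0.63 ± 0.21 (SE; limma adjusted p = 0.506). Fosb, a close relative of Fos, had 11.62, 11.78, 11.66 and 12.05 in Runx3Δ RM and 11.83, 12.70 and 12.47 in WT RM, in the same order of samples (difference -0.56 ± 0.19 SE, limma adjusted p = 0.494). Jun had 10.22, 10.11, 9.93 and 10.45 in Runx3Δ RM and 9.87, 11.62 and 10.82 in WT RM, so that 1 WT sample was below all Runx3Δ samples and the other two above them. Its difference of -0.59 ± 0.32 (SE) was smaller than the 1.76 that separated the highest and the lowest of the 12 samples. Junb differed by -0.20 ± 0.18 (SE). Jund and Fosl2, further AP-1 subunits, differed by -0.02 and 0.05.

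Atf3, a stress-induced bZIP factor that restrains inflammatory genes, had 11.47, 11.08, 11.01 and 11.51 in Runx3Δ RM and 10.66, 12.53 and 12.01 in WT RM. Its SD of 0.96 in WT RM was the largest of the 40 genes in any group, against 0.26 in Runx3Δ RM, and the means differed by -0.47 ± 0.35 (SE). Maff, a small Maf protein that lacks a transactivation domain, differed by -0.33.

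Among the other transcription factors Egr1, a zinc-finger factor that serum and stress induce within minutes, had 10.03, 10.20, 10.12 and 10.20 in Runx3Δ RM and 9.79, 11.62 and 10.97 in WT RM. The 4 Runx3Δ samples lay close together, whereas WT samples lay on both sides of them (difference -0.66 ± 0.35 SE, limma adjusted p = 0.681). Nr4a1, an orphan nuclear receptor, had 11.16, 11.22, 11.15 and 11.34 in Runx3Δ RM and 11.26, 12.19 and 11.68 in WT RM (difference -0.50 ± 0.20 SE). Klf6 differed by -0.39 and Klf4, a macrophage and barrier factor, by -0.24. Klf2, which quiets macrophage activation, differed by 0.04, and its direction turned when single RM samples were left out. Myc was 1 of the 4 genes without overlap, with 9.60, 9.47, 9.64 and 9.53 in Runx3Δ RM and 10.07, 10.02 and 9.68 in WT RM (difference -0.36 ± 0.13 SE, limma adjusted p = 0.517). Egr2 and Egr3 ran the other way, with 9.99 ± 0.32 in Runx3Δ RM (SD, n = 4) and 9.41 ± 0.61 in WT RM (SD, n = 3) for Egr2, and a difference of 0.22 for Egr3. For Egr2 the groups overlapped.

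All 7 feedback regulators were below 0, by -0.04 to -0.40. Zfp36, which binds AU-rich elements and speeds the decay of cytokine mRNA, had 11.80, 11.83, 11.73 and 11.87 in Runx3Δ RM and 11.66, 12.68 and 12.27 in WT RM. The Runx3Δ samples again lay close together between the WT samples. Dusp1, a phosphatase that inactivates p38 and JNK kinases and the brightest gene of the list, had 12.63, 13.03, 12.99 and 13.09 in Runx3Δ RM and 12.92, 13.29 and 13.27 in WT RM (difference -0.23 ± 0.14 SE). Nfkbia, the inhibitor that holds NF-κB in the cytoplasm, differed by -0.085.

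Ppp1r15a was the gene with the most negative difference. Its product guides protein phosphatase 1 to the translation factor eIF2α and so restarts protein synthesis after stress. It had 8.94, 9.13, 9.04 and 9.50 in Runx3Δ RM and 9.60, 10.12 and 10.14 in WT RM. Every WT sample was above every Runx3Δ sample (difference -0.80 ± 0.17 SE, limma adjusted p = 0.211). Ier2 had 8.52, 8.74, 8.59 and 8.71 in Runx3Δ RM and 8.61, 9.93 and 9.29 in WT RM (difference -0.63 ± 0.27 SE, limma adjusted p = 0.594). Ier5 and Gadd45b, both stress-induced regulators of growth, differed by -0.47 and -0.38, while Btg1, an antiproliferative gene of quiescent cells, differed by 0.10.

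Of 6 heat shock genes 2 had no overlap between the groups. Dnajb4, an Hsp40 cochaperone that delivers clients to Hsp70, had 8.33, 8.51, 8.18 and 8.53 in Runx3Δ RM and 9.04, 9.25 and 8.99 in WT RM. All 3 WT samples were above all Runx3Δ samples, and WT replicate 1 lay between the other two. The difference was -0.71 ± 0.11 (SE), with the lowest limma adjusted p of the list, 0.0971. It was 0.0441 when the 6617 rows without a gene symbol that lead the table were left out before the fit, and ranged between 0.0205 and 0.421 over 24 alternative settings. Hspa1a, the inducible Hsp70 chaperone, did not share that pattern. It had 10.31, 10.51, 10.41 and 11.22 in Runx3Δ RM and 9.83, 11.02 and 10.84 in WT RM, with a difference of 0.05 ± 0.31 (SE). The row shared by Hspa1a and Hspa1b gave 11.21 ± 0.43 in Runx3Δ RM (SD, n = 4) and 11.13 ± 0.52 in WT RM (SD, n = 3). Hsp90aa1, an inducible Hsp90 chaperone, was the other gene without overlap, with 12.45, 12.35, 12.39 and 12.44 in Runx3Δ RM and 12.51, 12.48 and 12.54 in WT RM (difference -0.11 ± 0.077 SE, limma adjusted p = 0.778). Hspa8, the constitutive Hsp70 family member, differed by -0.07 and Hspe1, a mitochondrial cochaperonin, by 0.18.

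**Figure D2:**
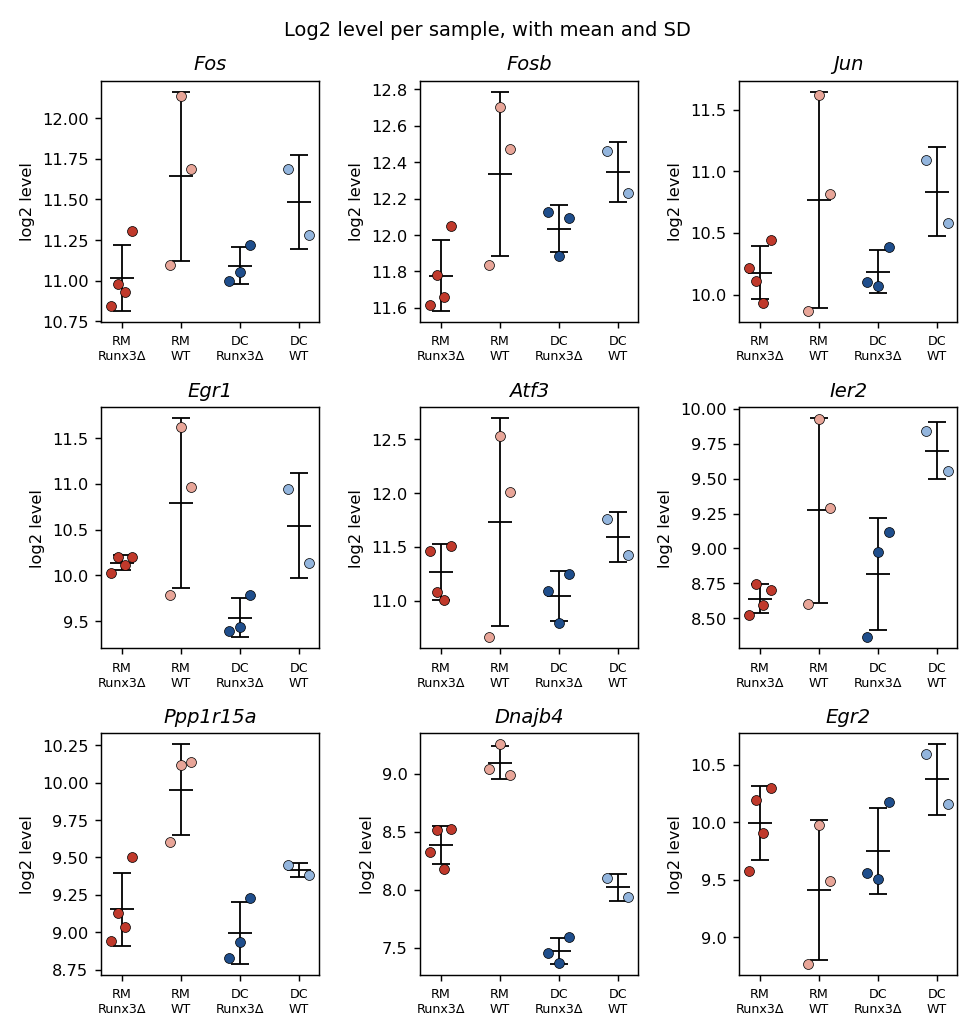
Log2 level of 9 genes in each sample (points), with the mean and SD of each group (bars), for Runx3Δ RM, WT RM, Runx3Δ CD11b+ DC and WT CD11b+ DC from left to right. WT RM replicate 1, the left point of its group, lies near or below the Runx3Δ RM samples for Fos, Jun, Egr1, Atf3 and Ier2, but at 9.04 for Dnajb4 it lies above all of them. Axes differ between panels and do not start at 0.

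The width of the WT RM group came from replicates 1 and 2. Replicate 1 was the lowest WT RM sample for 31 of 40 genes, against 37.8% of all genes, and replicate 2 the highest for 30 of 40, against 27.5% of all genes. Replicate 1 was above all Runx3Δ RM samples for 5 genes, within their range for 20 and below all of them for 15. The median SD of the 40 genes was 0.17 in Runx3Δ RM and 0.33 in WT RM, whereas over all genes it was 0.15 and 0.14 in these groups. The mean deviation over the 40 genes was -0.19, -0.11, -0.18 and 0.07 in Runx3Δ RM replicates 1 to 4, and -0.21, 0.43 and 0.19 in WT RM replicates 1 to 3.

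The size of the difference for several genes in RM, and the count at the thresholds of the study, therefore depended on single samples. Without WT RM replicate 1, 14 genes were lower at the thresholds of the study in place of 4, against 1.78% of all genes, and the median difference was -0.40. Fos then differed by -0.90, Egr1 by -1.16, Jun by -1.04 and Atf3 by -1.003. The adjusted p still missed the threshold for all 40 genes, with 0.0565 for Ppp1r15a, 0.0684 for Fosb, 0.0694 for Dnajb4 and 0.0835 for Fos. Without WT RM replicate 2 the median difference was -0.13, and Fos differed by -0.38, Egr1 by -0.24, Jun by -0.16 and Atf3 by -0.07.

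Samples from the same litter can be set side by side, since the labels carry litter numbers. In litter 1, Runx3Δ RM replicate 1 was lower than WT RM replicate 1 for 22 of 40 genes (median difference -0.03). In litter 2 it was lower for 34 of 40 (median -0.57), and in litter 3 for 32 of 40 (median -0.44). Over all genes the shares that were lower in these litters were 51.6%, 46.7% and 48.2%. In all 3 litters 17 of 40 genes (42.5%) were lower, against 15.8% of all genes, among them Fos, Fosb, Nr4a1, Ier2, Ier5, Btg2, Gadd45b and Dusp1. Fos was lower by -0.25, -1.16 and -0.76, Ppp1r15a by -0.66, -0.99 and -1.11, and Dnajb4 by -0.71, -0.74 and -0.81. Egr1 was higher by 0.24 in litter 1 and lower by -1.43 and -0.85 in litters 2 and 3.

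Marker genes of cell types moved with these samples. The mean log2 level of 12 macrophage markers, all 12 above the median of all genes, was 11.03, 11.31, 11.17 and 11.49 in Runx3Δ RM replicates 1 to 4 and 11.09, 11.60 and 11.49 in WT RM replicates 1 to 3. In both genotypes the samples with the higher macrophage level were those with the higher mean deviation of the 40 genes. WT RM replicate 1 also had the highest level among WT RM of 10 DC markers, all 10 above the median of all genes (9.13, against 8.69 and 8.74 in replicates 2 and 3), of 8 B and plasma cell markers, all 8 above the median of all genes (9.85, against 9.03 and 8.56) and of 11 granulocyte markers (5.74, against 5.37 and 5.41, of which 4 were above the median of all genes). It was also highest for epithelial (6.07, against 5.58 and 5.54) and T and NK cell markers (6.03, against 5.81 and 5.40). The same held for monocyte (7.56, against 7.46 and 6.96) and mast cell markers (4.18, against 3.97 and 4.02). It was not highest for macrophage, stroma or endothelial markers. As log2 of the summed intensities, macrophage markers spanned 15.42 to 15.66 in Runx3Δ RM and 15.48 to 15.72 in WT RM, DC markers 13.22 to 13.52 and 13.04 to 13.55, B and plasma cell markers 12.14 to 12.73 and 12.01 to 13.01, and granulocyte markers 10.27 to 10.58 and 10.18 to 10.65, in the same order of groups. The part of these markers in the result was not tested.

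**Figure D3:**
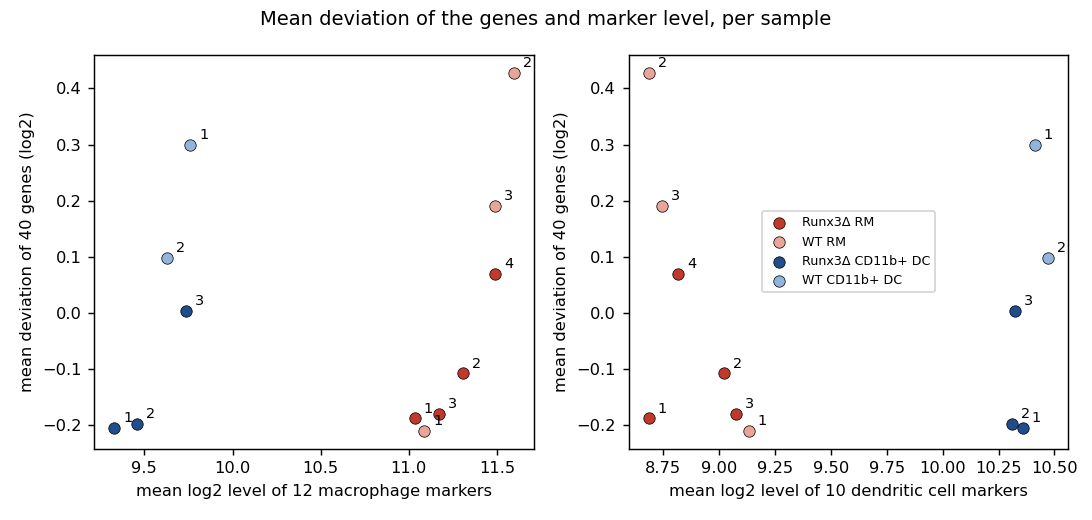
Mean deviation of 40 genes (log2, y axis) against the mean log2 level of 12 macrophage markers (left) and 10 DC markers (right), 1 point per sample, numbered by replicate. Within RM the sample with the highest mean deviation, WT replicate 2 at 0.43, also had the highest macrophage marker level, 11.60, and WT replicate 1 had the lowest mean deviation.

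In CD11b+ DC the same direction was found, again without a gene past the adjusted threshold. The difference between Runx3Δ and WT was below 0 for 37 of 40 genes, with a median of -0.34, against 47.2% of all genes and a median of 0.01. In limma 0 of 40 genes passed, as did 0% of all genes, and the lowest adjusted p was 0.383. Before adjustment 5 genes had a p under 0.05, all lower in Runx3Δ, against 7.42% of all genes in either direction. At the thresholds of the study 2 genes were lower and 0 higher, against 1.2% and 0.547% of all genes. In the fit to rows at a log2 level of 5 or more in a sample, the shares were 1.78% and 0.791% of 13405 genes. The median difference of those genes was -0.01. Groups did not overlap for 24 genes that were lower and 1 that was higher, Hspe1, against 13.8% and 13.7% of all genes, a wide background with 3 samples against 2.

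Egr1 had 9.39, 9.43 and 9.78 in Runx3Δ CD11b+ DC and 10.95 and 10.14 in WT CD11b+ DC. Both WT samples were above all Runx3Δ samples, and the fitted difference was -1.01 ± 0.41 (SE, limma adjusted p = 0.695). Ier2 had 8.36, 8.98 and 9.12 in Runx3Δ and 9.84 and 9.56 in WT samples (difference -0.88 ± 0.32 SE, limma adjusted p = 0.629). It remained past the thresholds of the study with litter as a block, whereas Egr1 did not. Dnajb4, the gene with the smallest p, had 7.46, 7.37 and 7.59 in Runx3Δ and 8.10 and 7.94 in WT samples (difference -0.55 ± 0.14 SE, limma adjusted p = 0.383). It thus had no overlap in either cell type.

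Fos had 11.001, 11.06 and 11.22 in Runx3Δ CD11b+ DC and 11.69 and 11.28 in WT CD11b+ DC, a difference of -0.39 ± 0.25 (SE). The gap between the groups, between 11.22 and 11.28, was small beside the spread within either. Jun differed by -0.65 and Atf3 by -0.55, also without overlap. Fosb and Junb differed by -0.31 and -0.24, Klf2 by -0.26 and Nr4a1 by -0.43, and Dusp1 by -0.35. All 9 genes of the growth arrest and stress group were lower without overlap, with differences between -0.16 for Btg1 and -0.88 for Ier2. Among these Ier3, which limits apoptosis after NF-κB activation, differed by -0.53 ± 0.22 (SE) and Ier5 by -0.52 ± 0.22 (SE). Klf4 was at 0.01 and turned its sign when single samples were left out, and Hspa1a was at -0.19 ± 0.37 (SE), with 9.96, 9.93 and 10.68 in Runx3Δ and 10.50 and 10.25 in WT samples.

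In CD11b+ DC too, single samples carried the level of the list. The mean deviation of the 40 genes was -0.21, -0.20 and 0.00 in Runx3Δ replicates 1 to 3 and 0.30 and 0.10 in WT replicates 1 and 2. Runx3Δ replicate 3 was the highest of its group for 29 of 40 genes, and WT replicate 1 the higher of its pair for 34 of 40, against 31.5% and 55.9% of all genes. The mean level of macrophage markers in these samples was 9.33, 9.46 and 9.73 in Runx3Δ and 9.76 and 9.63 in WT CD11b+ DC, and its part in the result was not tested. Stroma markers, of which 6 of 10 were above the median of all genes, were lower in Runx3Δ for 10 of 10 genes in CD11b+ DC (median difference -0.44) and for 10 of 10 in RM (median -0.24), 0 of them past the adjusted threshold in limma. As log2 of the summed intensities they spanned 9.42 to 9.80 in Runx3Δ and 9.92 to 10.70 in WT CD11b+ DC, and 9.84 to 10.46 in Runx3Δ and 10.09 to 10.86 in WT RM. Epithelial markers, 7 of 13 above the median of all genes, were higher in Runx3Δ CD11b+ DC for 11 of 13 (median 0.33) and in Runx3Δ RM for 8 of 13 (median 0.17), and spanned 10.15 to 10.71 in Runx3Δ and 9.98 to 10.23 in WT CD11b+ DC, and 9.86 to 10.84 in Runx3Δ and 9.95 to 10.61 in WT RM. T and NK cell markers, 7 of 10 above the median of all genes, were higher in Runx3Δ CD11b+ DC for 8 of 10 (median 0.27). In Runx3Δ RM they were higher for 9 of 10 (median 0.25). They spanned 9.78 to 9.83 in Runx3Δ and 9.85 to 10.08 in WT CD11b+ DC. In RM they spanned 9.67 to 10.56 in Runx3Δ and 9.32 to 10.14 in WT samples. The part of stroma, epithelial and T and NK cell markers in the result was not tested either. The 1 litter with both genotypes, litter 3, was lower in Runx3Δ for 36 of 40 genes, with a median of -0.31. Leaving out samples moved the count at the thresholds of the study from 2 to between 0 and 6 genes. It was 0 without Runx3Δ replicate 1, against 0.993% of all genes lower and 0.612% higher. Without Runx3Δ replicate 3 it was 6, against 1.36% and 0.532%. Without WT RM replicate 1, which enters the shared estimate of the spread, it was 4, against 1.27% and 0.587%. The median difference was -0.20 without WT CD11b+ DC replicate 1.

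The genotype comparisons of RM and CD11b+ DC share no samples, but 5 pairs of an RM and a DC sample have the same litter and genotype. WT RM replicate 2 and WT CD11b+ DC replicate 1, both of litter 2, had the highest mean deviation of their groups (0.43 and 0.30). So had Runx3Δ RM replicate 4 and Runx3Δ CD11b+ DC replicate 3, both of litter 4 (0.07 and 0.00). The comparisons are thus not independent repeats of each other. Hspe1 was the 1 gene above 0 in both. A direct test of whether the difference depended on cell type passed for 0 of 40 genes in limma, as for 0% of all genes, with every adjusted p at about 1. Before adjustment 3 genes had a p under 0.05, against 3.63% of all genes, and 2 of them passed the thresholds of the study with a higher difference in RM, against 0.672% of all genes. Egr2 was 1 of these. It had 9.58, 10.20, 9.91 and 10.30 in Runx3Δ RM and 8.77, 9.98 and 9.49 in WT RM, but 9.56, 9.51 and 10.18 in Runx3Δ and 10.59 and 10.16 in WT CD11b+ DC. The difference was thus 0.58 in RM and -0.62 in CD11b+ DC, 1.21 ± 0.44 (SE) apart. Egr3, the dimmest gene of the list, was 0.68 ± 0.28 (SE) apart, and Btg1 0.26 ± 0.12 (SE). The count of 2 genes at the thresholds of the study was 1 without WT RM replicate 3, against 0.672% of all genes higher and 0.652% lower. It was also 1 without Runx3Δ CD11b+ DC replicate 2, against 0.802% and 0.632%. For Fos the difference in RM minus that in CD11b+ DC was -0.23 ± 0.33 (SE), too wide an error to tell whether they were alike.

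**Figure D4:**
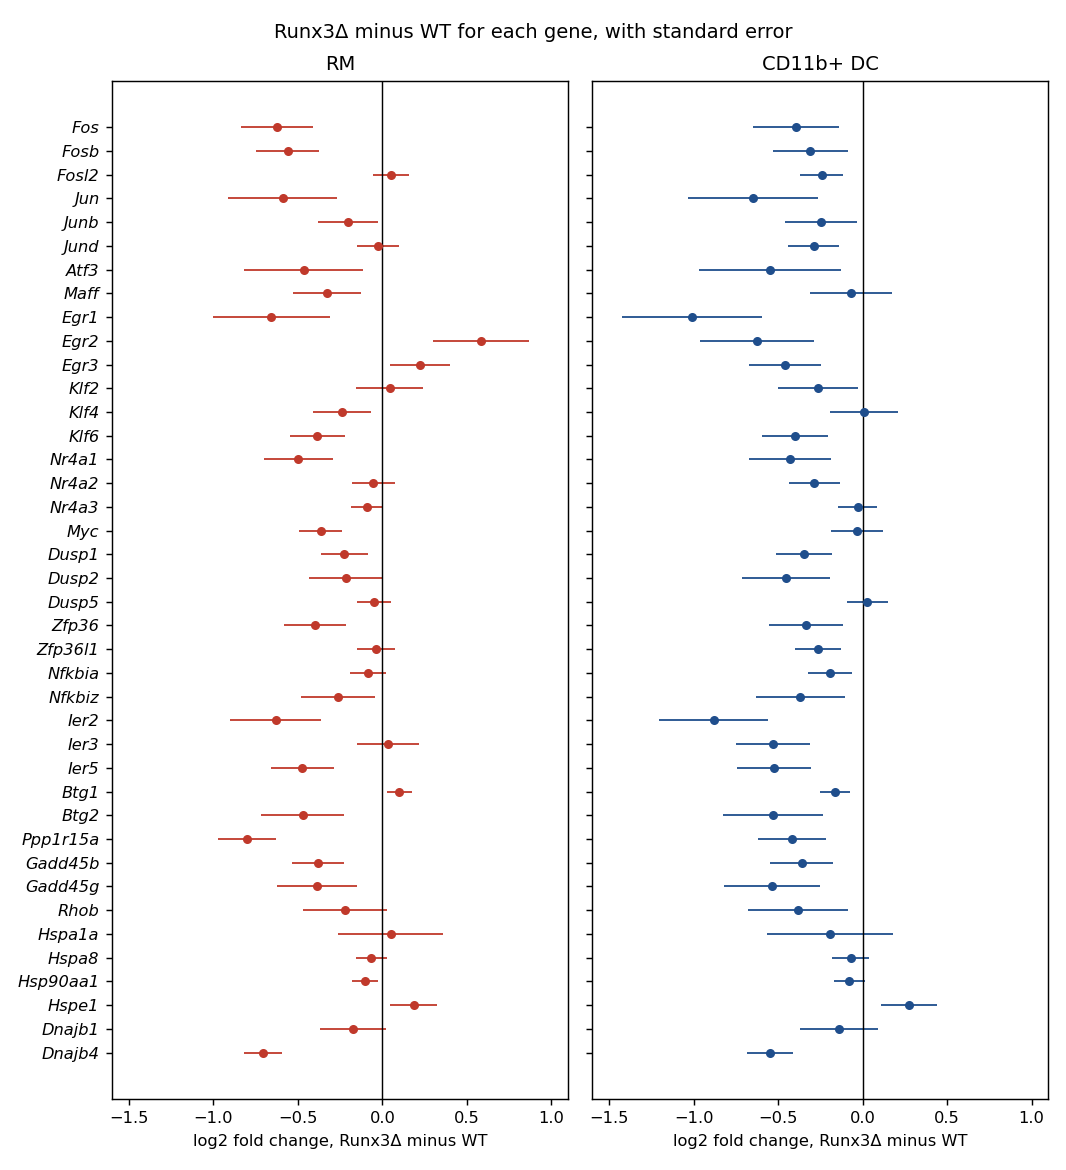
Fitted log2 difference between Runx3Δ and WT for each of 40 genes (rows, by role group), in RM (left) and CD11b+ DC (right), with the standard error of limma as bars and a line at 0. In RM 32 of 40 genes lie left of 0, and in CD11b+ DC 37 of 40, and Egr2 lies on opposite sides in the 2 panels.

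The cell types themselves differed in a few of these genes, while the list as a whole did not lean to either. Between WT RM and WT CD11b+ DC the median difference was -0.01, and between Runx3Δ RM and Runx3Δ CD11b+ DC it was 0.01. In WT samples 1 gene rose and 3 fell in RM relative to DC, so 4 of 40 passed in limma, against 8.45% of all genes (4.27% higher and 4.18% lower). In Runx3Δ samples 4 rose and 3 fell, against 10.6% of all genes (4.97% higher and 5.6% lower). These shares of the list, of 40 genes each, are close to the background. The WT and the Runx3Δ comparison share no samples, and 34 of 40 genes (85%) had the same sign in both, against 70.7% of all genes.

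Nr4a2 and Nr4a3, orphan nuclear receptors like Nr4a1, had the smallest p of the list in both genotypes. Nr4a2 had 10.29, 10.45, 10.53 and 10.07 in Runx3Δ RM and 11.89, 11.71 and 11.79 in Runx3Δ CD11b+ DC. In WT mice it had 10.42, 10.55 and 10.19 in RM and 12.15 and 12.01 in CD11b+ DC. All RM samples lay over 1 log2 unit below all CD11b+ DC samples, and Nr4a2 fell by 1.46 ± 0.13 (SE, limma adjusted p = 5.8e-05) in Runx3Δ and by 1.69 ± 0.15 (SE, limma adjusted p = 9.5e-05) in WT samples. Nr4a3 had 10.88, 10.72, 10.91 and 10.66 in Runx3Δ RM and 12.09, 11.85 and 11.86 in Runx3Δ CD11b+ DC, and 10.92, 10.89 and 10.83 in WT RM against 11.91 and 12.01 in WT CD11b+ DC. It fell by 1.14 ± 0.10 (SE) and 1.08 ± 0.11 (SE) in these comparisons. Both genes passed in both genotypes under all 24 alternative settings. Nr4a1, the third member of the family, had a difference of -0.50 ± 0.20 (SE, limma adjusted p = 0.199) in Runx3Δ and -0.44 ± 0.24 (SE, limma adjusted p = 0.427) in WT samples.

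Egr3 fell in WT RM, with 7.07, 7.16 and 6.70 against 8.21 and 7.70 in WT CD11b+ DC (difference -0.98 ± 0.21 SE, limma adjusted p = 0.0193). The call was lost in 4 of 24 alternatives, without WT RM replicate 3 (adjusted p = 0.072) or WT CD11b+ DC replicate 1 (0.206), with the 2 groups alone (0.0972) and in the unmoderated model (0.0571). In Runx3Δ samples Egr3 averaged 7.20 in RM and 7.50 in CD11b+ DC. Myc fell in Runx3Δ RM, with 9.60, 9.47, 9.64 and 9.53 against 10.40, 10.10 and 10 in Runx3Δ CD11b+ DC (difference -0.61 ± 0.13 SE, limma adjusted p = 0.0137), and missed the threshold only without Runx3Δ CD11b+ DC replicate 1 (adjusted p = 0.0601), 1 of 24 alternatives.

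On the other side, Dnajb4 rose in RM of both genotypes. It averaged 8.39 ± 0.17 in Runx3Δ RM (SD, n = 4) and 7.47 ± 0.11 in Runx3Δ CD11b+ DC (SD, n = 3), and 9.09 ± 0.14 in WT RM (SD, n = 3) and 8.02 ± 0.12 in WT CD11b+ DC (SD, n = 2). The 4 groups did not overlap, so Dnajb4 was ordered by cell type and, within each, by genotype. The differences between RM and CD11b+ DC were 0.91 ± 0.11 (SE) and 1.07 ± 0.14 (SE), with limma adjusted p of 0.000545 and 0.000778, and passed under all 24 alternative settings.

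Rhob, a small GTPase of endosomes induced by stress, had 8.78, 8.60, 8.54 and 8.92 in Runx3Δ RM and 7.40, 7.44 and 7.56 in Runx3Δ CD11b+ DC, and rose by 1.25 ± 0.25 (SE, limma adjusted p = 0.01). In WT samples it had 8.28, 9.60 and 8.92 in RM and 8.07 and 7.62 in CD11b+ DC. The difference of 1.09 ± 0.30 (SE) there missed the threshold (limma adjusted p = 0.0571), and it passed in 9 of 24 alternatives, among them litter as a block (1.20, adjusted p = 0.0404) and the fit without WT RM replicate 1 (1.42, adjusted p = 0.0038). Adjusted p ranged between 0.0038 and 0.358 over the 24. Ier3 rose by 0.95 ± 0.18 (SE, limma adjusted p = 0.00829) in Runx3Δ RM, with 10.96, 11.44, 11.39 and 11.56 against 10.09, 10.50 and 10.58 in Runx3Δ CD11b+ DC. In WT samples its difference was 0.38 ± 0.22 (SE), and the 2 differences were not shown to differ (0.57 ± 0.28 SE apart, limma adjusted p = 1). Zfp36l1, a partner of Zfp36 in mRNA decay, rose by 0.48 ± 0.11 (SE, limma adjusted p = 0.0251) in Runx3Δ RM, but missed the threshold in 6 of 24 alternatives, which were median centring and the fits without Runx3Δ RM replicates 2, 3 or 4 or Runx3Δ CD11b+ DC replicates 1 or 2.

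Litter as a block moved the calls in these comparisons. In WT samples 8 genes then passed in place of 4: Rhob, Egr2 (-0.77, adjusted p = 0.0394), Ppp1r15a (0.63, adjusted p = 0.0279) and Dusp2 joined the 4 above. Over all genes, 1769 of 19938 passed with the block in WT samples, in place of 1684, and 1990 in Runx3Δ samples, in place of 2108. In Runx3Δ samples Dusp2, a nuclear phosphatase of MAP kinases, joined the list (0.74, adjusted p = 0.00577), where it had 0.73 ± 0.22 (SE) and an adjusted p of 0.0697 without the block. Within the 5 pairs, Nr4a2 was lower in RM by -1.18 to -1.82 and Dnajb4 higher by 0.80 to 1.15. By contrast Fos, Fosb, Jun, Junb, Atf3, Klf2, Dusp1 and Hspa1a passed in neither genotype. Hspa1a averaged 10.61 in Runx3Δ RM and 10.19 in Runx3Δ CD11b+ DC, and 10.56 in WT RM and 10.38 in WT CD11b+ DC, with SDs between 0.18 and 0.65.

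**Figure D5:**
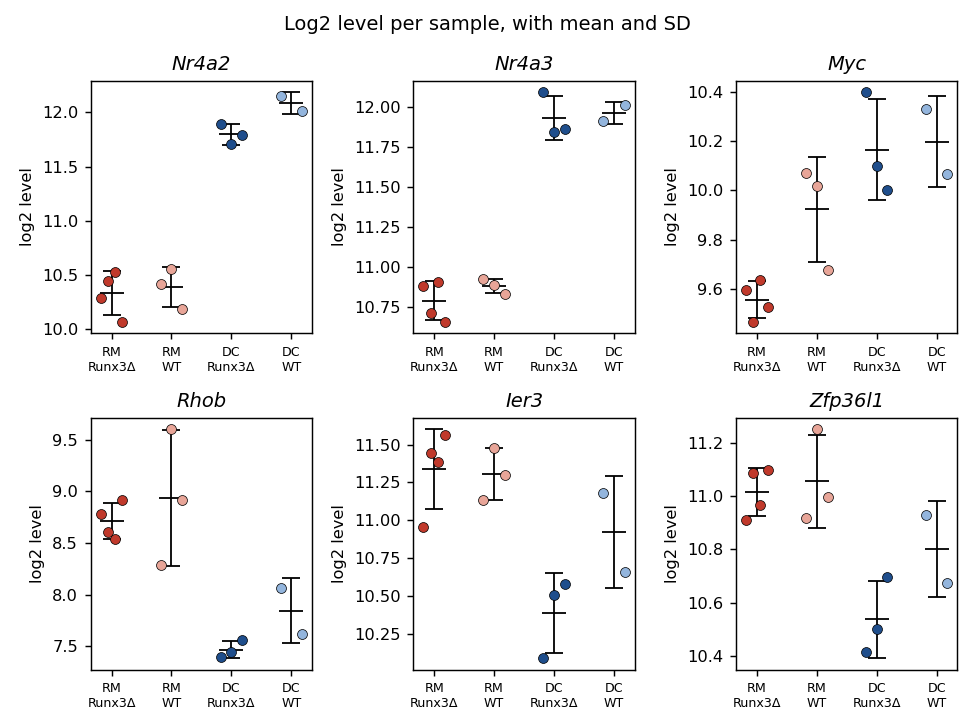
Log2 level of 6 genes in each sample (points), with mean and SD per group, for Runx3Δ RM, WT RM, Runx3Δ CD11b+ DC and WT CD11b+ DC from left to right. All RM samples lie below all CD11b+ DC samples for Nr4a2 and Nr4a3, and above them for Rhob. Axes differ between panels and do not start at 0.

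To see which genes moved as 1 unit, the 4 group means were removed and each gene was set against Fos over the 12 samples. All genes of a sample share its RNA pool and its array, and some samples share a litter. Of the other 39 genes 23 (59.0%) had a Pearson's r above 0.8, against 2.16% of 19898 genes outside the list. The median r was 0.85 for the 39 genes and 0.01 for the others (median Spearman's rho 0.80 and 0.03). Btg2 (0.97), Junb (0.97), Jun (0.96), Rhob (0.94), Fosb (0.94) and Egr1 (0.94) came first. Without WT RM replicates 1 and 2, the samples farthest from the median, 15 genes were above 0.8, 12 of the earlier 23 and 3 more (Nfkbia, Btg1 and Ier3), against 4.02% of the others, and the median was 0.75. Hspa1a went along (0.89 over the 12 samples), as did Dnajb1 and Hspa8 to a lesser degree (0.68 and 0.79), so the inducible heat shock gene varied between samples with the AP-1 genes. For 6 genes r was below 0, among them Hspe1 (-0.73), Nr4a3 (-0.47), Myc (-0.12) and Nr4a2 (-0.03). The Nr4a2 and Nr4a3 levels that separated the cell types were thus not those that varied with Fos within a group, whereas Nr4a1 (0.91) varied with it. Outside the list, the 5 genes nearest to its mean deviation were Myh10 (r = 0.98), Nisch (0.97), Patl1 (0.96), the pseudogene Nlrp1c-ps (0.96) and Stard8 (0.96).

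Because so many of these genes moved together, the 300 bases around their start sites (250 before and 50 after, from RefSeq on GRCm38.p6) were searched for the binding motifs named below. Of the list, 34 genes were in the table, next to 27025 in all. The full cAMP response element TGACGTCA, which CREB and ATF proteins bind and which reads the same on both strands, occurred in 4 of 34 genes (11.8%; Btg2, Dusp1, Maff and Ppp1r15a), against 2.03% of all genes. The CArG box of serum response factor occurred in 3 (8.82%; Dusp5, Egr2 and Zfp36), against 1.81%. A run of 3 heat shock units, GAANNTTCNNGAA or TTCNNGAANNTTC, occurred in 1 (2.94%; Hspe1), against 0.662%. The AP-1 site TGACTCA occurred in 0 of 34 on either strand, against 5.95%, and the RUNX motif TGTGGT in 0 of 34, against 18.9%. With 34 genes each of these shares rests on few matches, and a match is a run of letters in this window, not a bound site. The stretches below show the match in capitals in 4 genes that varied with Fos and in Hspe1, which ran against it. Each reads 5′ to 3′ in the direction of its gene.
Ppp1r15a, chr7:45526228-45526325, minus strand, cAMP response element 12 to 5 bases before the start: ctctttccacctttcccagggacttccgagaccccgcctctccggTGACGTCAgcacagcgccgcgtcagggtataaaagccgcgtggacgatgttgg
Btg2, chr1:134079269-134079366, minus strand, cAMP response element 166 to 159 bases before the start: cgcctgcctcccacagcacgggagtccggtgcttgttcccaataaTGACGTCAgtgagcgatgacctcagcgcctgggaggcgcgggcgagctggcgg
Zfp36, chr7:28379232-28379331, minus strand, CArG box 58 to 49 bases before the start: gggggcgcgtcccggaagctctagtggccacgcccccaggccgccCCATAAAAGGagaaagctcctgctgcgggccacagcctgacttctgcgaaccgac
Egr2, chr10:67537449-67537548, plus strand, CArG box 72 to 63 bases before 1 of its listed starts: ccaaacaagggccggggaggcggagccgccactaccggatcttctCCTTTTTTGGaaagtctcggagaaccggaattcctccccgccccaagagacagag
Hspe1, chr1:55088014-55088121, plus strand, overlapping heat shock units 89 to 72 bases before the start: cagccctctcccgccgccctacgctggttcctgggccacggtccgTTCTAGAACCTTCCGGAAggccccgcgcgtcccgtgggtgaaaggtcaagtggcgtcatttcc
In these samples Ppp1r15a and Btg2, which share the cAMP response element, differed between Runx3Δ and WT RM by -0.80 and -0.47, and Dusp1 and Maff, which also hold it, by -0.23 and -0.33. Zfp36, Egr2 and Dusp5, which share the CArG box, differed by -0.40, 0.58 and -0.05.

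Genes of the same pathways outside the list lay below 0 in smaller shares than the list. For early cytokines and chemokines in RM the share was close to it (78.6% against 80%). Their medians lay further below 0 than those of the list in both cell types. Genes of heat shock and of upstream signaling were close to all genes in RM. For reference, 47.4% of all genes were below 0 in RM and 47.2% in CD11b+ DC, each with a median of 0.01. Among 39 other immediate-early genes, 28 were below 0 in Runx3Δ RM against WT RM (median -0.13) and 25 in CD11b+ DC (median -0.16), and 0 passed in limma in either. Csrnp1 (-0.49), Tiparp (-0.39) and Plk3 (-0.51) had the smallest p in RM, and Phlda1 (-1.06), Klf9 (-0.50) and Cebpd (-0.65) in CD11b+ DC. Of 14 early cytokines and chemokines, products of the same wave, 11 were below 0 in RM (median -0.32) and 11 in CD11b+ DC (median -0.72). In either cell type 0 passed the adjusted threshold. At the thresholds of the study 3 were lower in Runx3Δ RM, against 0.858% of all genes. In CD11b+ DC 6 were lower and 1 higher, against 1.2% and 0.547% of all genes. The 3 in RM were Ccl4 (-1.05 ± 0.26 SE), Ccl3 (-0.72 ± 0.23 SE) and Tnf (-1.14 ± 0.37 SE). In CD11b+ DC Ereg (-1.50), Ccl4 (-1.08) and Il6 (-0.88) had the smallest p. Of 21 other heat shock genes 12 were below 0 in RM (median -0.03) and 18 in CD11b+ DC (median -0.06), and Dnajb9, an Hsp40 of the endoplasmic reticulum, had -0.63 ± 0.20 (SE) in RM. Of 25 upstream kinases and factors 15 were below 0 in RM (median -0.03) and 20 in CD11b+ DC (median -0.10). Map2k3, a kinase of p38, had -0.55 ± 0.12 (SE, limma adjusted p = 0.342) in CD11b+ DC.

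Between cell types more of these genes passed, as did more of all genes, of which 4.97% rose and 5.6% fell in Runx3Δ RM relative to DC and 4.27% and 4.18% in WT RM. The shares of the heat shock list were near this background. Pairs of values are given for Runx3Δ samples first and then for WT samples. Of 39 other immediate-early genes 6 rose and 5 fell in Runx3Δ RM relative to Runx3Δ CD11b+ DC, and 3 rose and 3 fell in WT samples. Gem, a small GTPase, fell by 0.97 and 0.82, and Id1, an inhibitor of basic helix-loop-helix factors, by 0.71 and 0.65. Of 14 cytokines and chemokines 8 rose and 0 fell in Runx3Δ RM, and 6 rose and 1 fell in WT RM, led by Ccl7 (3.45 and 3.05) and the neutrophil attractant Cxcl1 (1.87 and 1.61). Of 21 other heat shock genes 2 rose in Runx3Δ RM and 1 in WT RM, with Bag3, a cochaperone of Hsp70, in both (1.00 and 0.77). Of 25 upstream genes 2 rose and 5 fell in Runx3Δ RM, and 2 rose and 4 fell in WT RM. Among them Ikbkb, a kinase that marks Nfkbia for degradation, fell by 0.53 and 0.95.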

How the data were processed

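Per the labels and methods, the authors normalized the arrays in Partek by RMA with GC correction and deposited log2 intensities (build mm9 in the submitters' processing notes). The methods name an exon array, while the platform record is of the gene-level kind. Of 35556 rows, 21789 carry 1 gene symbol, 1621 several and 12146 none. For the 3 genes of the list with several rows (Hspa8, Hsp90aa1 and Hspe1) the one with the highest mean was used. The number of arrays limits the precision.

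All rows were fitted as 4 groups with limma 3.58.1 (R 4.3.3, statmod 1.5.0), with Benjamini-Hochberg adjustment across every row and a threshold of 0.05. Counts over all genes use 19938 genes with a row of their own. The methods' one-way model without moderation was an alternative. Figures were drawn with matplotlib 3.10.9 in Python 3.11.15. The fit was tested on simulated data.

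The members, the lists and the alternatives were chosen with earlier results of these data known. The genes named were Fos, Fosb, Jun, Junb, Egr1, Atf3, Dusp1, Klf2, Klf4, Nr4a1, Hspa1a, Hspa1b, Runx3, in each comparison those past the adjusted threshold and up to 6 further ones with the smallest p, up to 3 per pathway list, and the 5 genes nearest to the mean deviation. Others named were chosen after their values were seen.

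Litter numbers come from the labels. With the group means taken out, 13 pairs from the same litter had a median correlation of 0.118 (-0.0107 to 0.518) over genes, 40 pairs of different litters -0.0336 (-0.327 to 0.222), and 5 pairs of the same litter and genotype 0.292 (0.172 to 0.518). The litter block as a fixed or random term was an alternative, and the block of litter and genotype was chosen after seeing the data. The other alternatives were the 2 groups alone, an intensity trend with a robust prior, quantile normalization, median centring, keeping only rows at 5 or above in some sample, other sets of rows, and leaving out each sample. No source states that pools of 1 group came from separate isolations, so p-values may in part measure technical spread. Chromatin and flow cytometry data of the study were not analysed here.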

Additional observations from a re-analysis of the deposited data

Results flagged for a closer look

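In Runx3Δ RM, the group of 4 samples, 2 of 40 genes had a sample far from the other 3, where chance gives about 1 in 20 such groups. Klf6 in Runx3Δ RM replicate 4 had a log2 level of 11.56, against 11.41 for the next and 11.38 for the lowest sample. Dusp2 in Runx3Δ RM replicate 1 had 9.73, against 10.28 for the next and 10.37 for the highest sample.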

How the results depend on the processing

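The medians of the genotype differences kept their sign under all 24 alternatives, between -0.40 and -0.13 in RM and between -0.42 and -0.20 in CD11b+ DC, and the adjusted count stayed at 0 in CD11b+ DC. In RM it was 1 (Dnajb4) without the leading unnamed rows, with 1 row per gene and with the mean of the rows, and 0 in the other 21. Over all genes 26, 47 and 43 of 19938 passed in these fits, in that order, against 4 in the fit to all rows. The count at the thresholds of the study in RM was 3 to 14 genes when single samples were left out, while 0.627% to 1.78% of all genes were lower. In CD11b+ DC the count was 1 with the litter as a replicate block, with litter and genotype as a random block and in the unmoderated model. It was 4 with the 2 groups alone, and 0 to 6 when single samples were left out. Of all genes 0.913% were lower there with the litter block, 1.2% with the random block, 1.04% in the unmoderated model and 1.27% with the 2 groups alone. In leave-one-out fits that kept both WT CD11b+ DC samples the share was 0.993% to 1.36%. For the difference between cell types the count was 1 in the unmoderated model, against 0.492% of all genes higher and 0.537% lower. It also moved when single samples were left out. With litter as a replicate block, 8 genes passed the adjusted threshold between WT RM and WT CD11b+ DC, against 1769 of 19938 genes in all. The block moved no other count of the list by over 1.5 times except that in CD11b+ DC given above. The cause of these shifts was not tested. When single samples were left out, the difference in RM ran between -0.15 and 0.31 for Klf2 and between -0.32 and 0.28 for Hspa1a, and that in CD11b+ DC between -0.094 and 0.11 for Klf4. With the litter block Hspa1a in RM was at -0.13. Leaving out a WT CD11b+ DC sample leaves 1 array there, which is assumed to vary like the other groups. With 2 to 4 arrays per group, differences within the spread of WT RM were not detectable.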
